A study of Homo sapiens with 18 samples.

Results

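The libraries described here are those of XG1 cells kept for 24 h in 1000 nM YKL-5-124, set against those of XG1 cells kept for 24 h in the solvent DMSO. They were chosen by label, 3 libraries per group, and make up 6 of the 18 libraries of the series. XG1 is an established human cell line that the labels give as multiple myeloma, a cancer of plasma cells, and YKL-5-124 is a covalent inhibitor of the kinase CDK7. A further 3 groups of 3 libraries are used for comparison: XG1 cells in 100 nM YKL-5-124, and cells of the myeloma line AMO1 in 1000 nM YKL-5-124 and in DMSO, all for 24 h. All cells grew in multi-well plates in RPMI medium with serum, and RNA was read by QuantSeq, which sequences the 3′ ends of polyadenylated transcripts. The replicates are numbered, and nothing states whether they grew as separate cultures, so every p-value measures only the spread between these samples.

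CDK7 works with cyclin H (CCNH) and MAT1 (MNAT1). Within the general transcription factor TFIIH this trio phosphorylates the tail of RNA polymerase II as transcription starts, and as the CDK-activating kinase it phosphorylates the kinases that drive the cell cycle, among them CDK1 and CDK2. The genes of DNA replication are switched on by E2F factors once the retinoblastoma proteins have been phosphorylated, and the genes of mitosis are switched on later, largely through promoter elements read by the DREAM and MuvB complexes.

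The label was checked against marker genes before any comparison. The libraries labelled XG1 held most plasma cell genes at a low level: the 10 plasma cell markers summed to 64.5 to 72.8 FPKM at 1000 nM and to 91.6 to 145 FPKM in DMSO. IRF4, a factor that plasma cells depend on, stood at 0.204, 0.216 and 0.171 FPKM at 1000 nM, against 0.651, 0.181 and 0.767 FPKM in DMSO, below the level needed for testing. The same libraries carried red cell genes, with 15 erythroid markers summing to 3623 to 3960 FPKM at 1000 nM and 5178 to 5627 FPKM in DMSO. They are therefore called the XG1 libraries throughout, after their label only. Myeloid markers summed to 117 to 145 FPKM at 1000 nM and 165 to 199.6 FPKM in DMSO, with 6 of 15 members averaging at least 1 FPKM. Among those 6, CD33, ITGAM, FCGR1A, CEBPA and LYZ averaged 52.2, 37.6, 12.3, 15.4 and 8.84 FPKM at 1000 nM, and 47.2, 71.7, 31.8, 12.6 and 12.2 FPKM in DMSO, whereas MPO, ELANE, S100A8 and S100A9 stood at or near the floor of the files. The summed markers of B cells and of T and NK cells overlapped between the groups. In the T and NK list CD7 averaged 39.1 FPKM at 1000 nM and 45.5 FPKM in DMSO, and CD4 6.83 FPKM at 1000 nM and 4.64 FPKM in DMSO, with CD3D and CD3E of the T cell receptor at the floor. Megakaryocyte markers summed to 55.2 to 71.7 FPKM at 1000 nM and 35.2 to 51.2 FPKM in DMSO, most of it GP1BB at 53.7 FPKM on average at 1000 nM and 36.8 FPKM in DMSO. PF4 averaged 5.89 FPKM at 1000 nM and 3.5 FPKM in DMSO, and ITGB3, PPBP and GP9 were at or near the floor.

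The files hold FPKM (fragments per kilobase of gene, scaled to library size) for 26249 genes, on a scale where the summed spike-in RNAs are nearly level (98.96% of DMSO at 1000 nM), so changes on this deposited scale are read against the spike-ins. Each of the 6 libraries had between 11034 and 11440 genes of at least 1 FPKM, and the lowest Spearman correlation with a library of the same group lay between 0.949 and 0.967. Summed over all genes, the 1000 nM libraries held 73.3% ± 5.16 (SD, n = 3) of the DMSO level, with no overlap between the groups (two-sided exact permutation test, p = 0.1, the smallest that 3 against 3 can give). In bulk libraries fewer cells and less RNA per cell cannot be told apart. The median gene moved less than the sum, by −0.06, −0.19 and −0.20 on the log2 scale in 1000 nM replicates 1, 2 and 3. Each change is therefore also given relative to the median gene (the relative scale), after division by median-ratio size factors.

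Of 11810 tested genes, 436 (3.69%) were higher and 1558 (13.2%) lower at 1000 nM than in DMSO on the deposited scale, at an adjusted p under 0.05 (moderated limma test on log2(FPKM + 1), Benjamini-Hochberg over all tested genes). Together 16.9% of tested genes passed. Relative to the median gene the split was nearly even, with 1130 higher (9.57%) and 1212 lower (10.3%), 19.8% of tested genes together. The 1994 calls on the deposited scale became 1047 without DMSO replicate 3, 1144 without 1000 nM replicate 2, 1179 without 1000 nM replicate 3 and 1197 without DMSO replicate 1. The 2342 calls on the relative scale became 1433 without DMSO replicate 2 and 1496 without DMSO replicate 3. In 3550 tested genes (30.1%) every 1000 nM library lay below every DMSO library, and in 1363 (11.5%) every one lay above. Counts within the gene lists below are to be read beside these shares. The log2 changes rest on FPKM + 1 and so understate the changes of genes with low values.

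**Figure D1:**
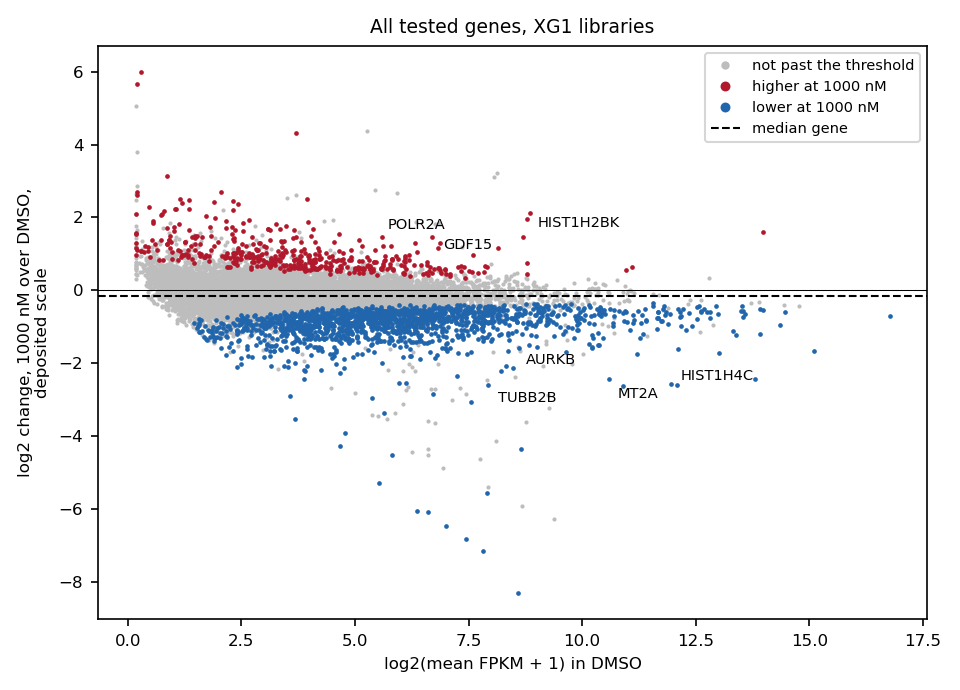
Log2 change at 1000 nM over DMSO (deposited scale, vertical axis) against the log2(mean FPKM + 1) in DMSO (horizontal axis) for the 11810 tested genes, with red and blue points for genes past the threshold and a dashed line at the median change. Genes past the threshold lie mostly below the dashed line, and the labelled POLR2A, GDF15 and HIST1H2BK lie among those above it.

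The gene for the enzyme that CDK7 acts on went up while the genes of the kinase itself did not pass the test. POLR2A, the polymerase II subunit that carries the phosphorylated tail, had 148, 129.6 and 118 FPKM at 1000 nM, against 52.2, 40.0 and 49.3 FPKM in DMSO. All treated libraries lay far above all DMSO libraries (log2 change 1.47, SE 0.14, adjusted p = 0.000131, relative 1.65). CDK7 had 19.0, 20.7 and 18.2 FPKM at 1000 nM, against 19.1, 25.5 and 39.3 FPKM in DMSO, and CCNH had 62.1, 51.9 and 41.9 FPKM at 1000 nM, against 54.8, 53.1 and 52.1 FPKM in DMSO. Both pairs of groups overlapped, as did those of MNAT1, and the log2 changes were −0.45, −0.05 and −0.33 (adjusted p = 0.354, 0.915 and 0.54). CDK7 overlaps CCDC125 and CCNH overlaps RASA1 in the genome, and no source used here states whether reads were counted by strand, so reads of such overlapping pairs cannot be told apart.

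Among the 12 polymerase II subunits, 2 rose and 2 fell (33.3% called, beside 16.9% of all tested genes), and the median was −0.17. POLR2L, a small subunit shared by the 3 nuclear polymerases, rose (log2 change 0.50, adjusted p = 0.0176), a call lost without 1000 nM replicate 1 or 3 or DMSO replicate 1 or 2 (adjusted p = 0.0558 to 0.0734). POLR2H, also shared, fell to 105, 92.0 and 107 FPKM at 1000 nM, against 211, 186 and 204 FPKM in DMSO (log2 change −0.98, adjusted p = 0.001), and POLR2E fell by a smaller amount (log2 change −0.46, adjusted p = 0.0416), a call lost without 1000 nM replicate 1, 2 or 3 or DMSO replicate 1 or 3 (adjusted p = 0.0544 to 0.164). Of the 9 tested members of the CDK7 complex and TFIIH, only GTF2H3, a core TFIIH subunit, passed (log2 change −0.73, adjusted p = 0.0233), a call lost without 1000 nM replicate 2 or 3 or DMSO replicate 1 or 3 (adjusted p = 0.0657 to 0.102). The share called in this list was 11.1%, beside 16.9% of all tested genes. The TFIIH helicase ERCC2 passed on the relative scale alone (0.67, adjusted p = 0.042).

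The machinery that pauses and releases the polymerase had 0 of 30 members higher and 3 lower (2 and 3 relative). That was 10.0% called, beside 16.9% of all tested genes. Every 1000 nM library lay below every DMSO library in 13 of the 30 and above in 3. Among all tested genes these shares were 30.1% and 11.5%. SSRP1, a subunit of the histone chaperone FACT, fell to 156, 116 and 136 FPKM at 1000 nM, against 259, 229 and 248 FPKM in DMSO (log2 change −0.86, adjusted p = 0.00207). NELFA, a subunit of the pausing factor NELF, fell by a similar amount (log2 change −0.79, adjusted p = 0.00468). LARP7, which holds the 7SK RNA that restrains the elongation kinase P-TEFb, also fell (log2 change −1.11, adjusted p = 0.0339), a call lost without any single one of the 6 libraries (adjusted p = 0.0517 to 0.106). HEXIM1, the 7SK-bound inhibitor of that kinase, had 31.4, 34.6 and 23.4 FPKM at 1000 nM, against 29.4, 28.6 and 33.6 FPKM in DMSO, and its groups overlapped (log2 change −0.05, adjusted p = 0.915). Of 31 Mediator subunits, which bridge transcription factors and the polymerase, 6 were lower and 0 higher (19.4% called, beside 16.9% of all tested genes), and relative to the median gene 2 were lower and 2 higher. MED1 had the largest fall of the 6 (log2 change −0.80, adjusted p = 0.00571) and kept its call without any single library. The count of 6 became 1 without 1000 nM replicate 3 or DMSO replicate 3, 2 without 1000 nM replicate 2 or DMSO replicate 1 or 2, and 3 without 1000 nM replicate 1.

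**Figure D2:**
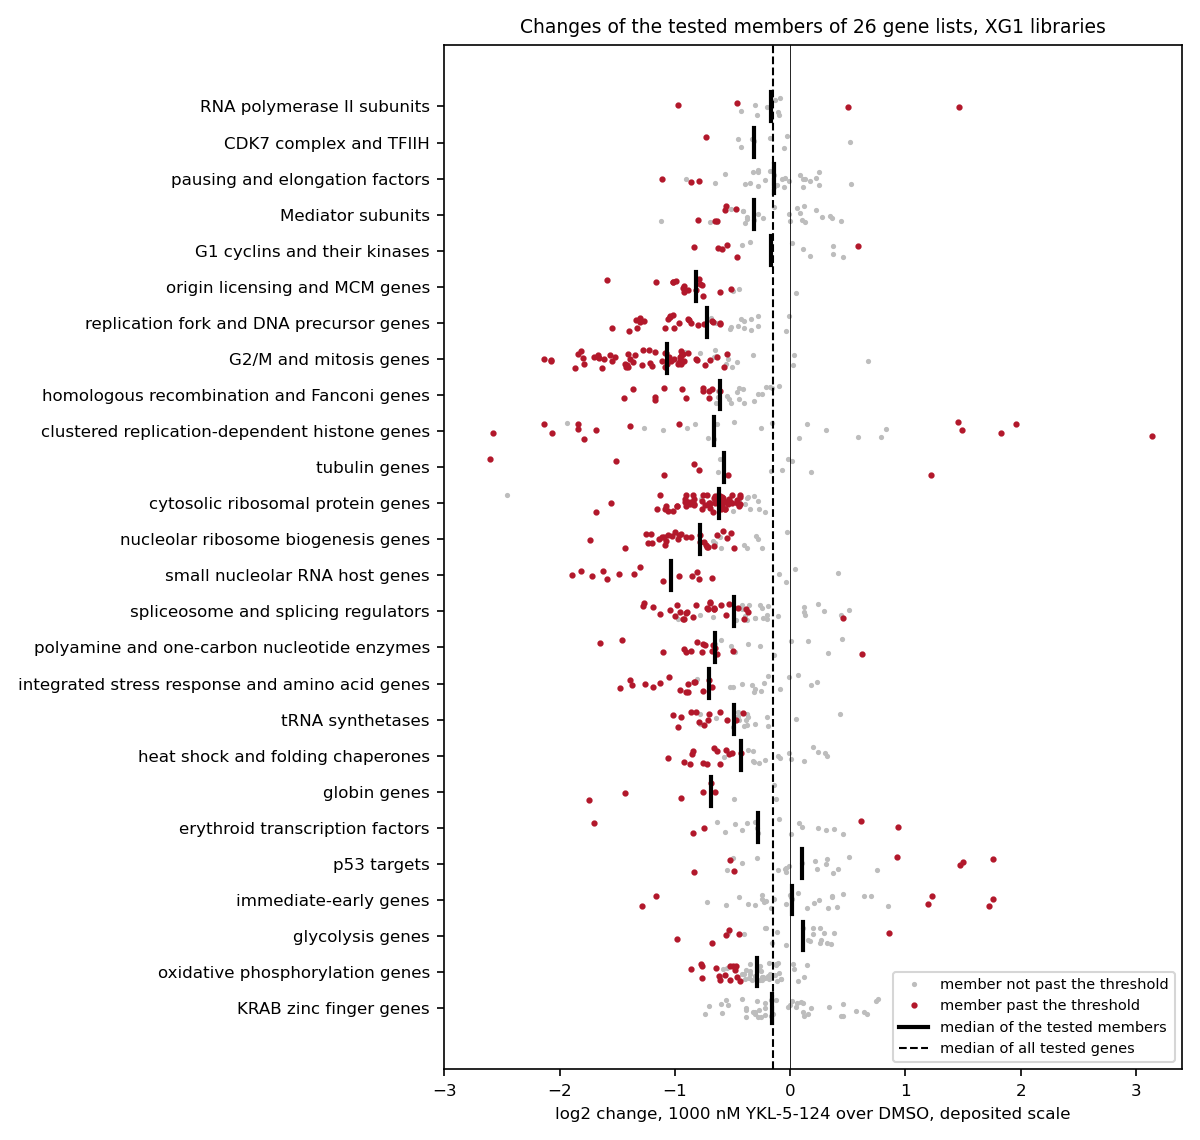
Log2 changes at 1000 nM over DMSO (deposited scale, horizontal axis) of the tested members of 26 gene lists, 1 point per gene, red where the gene passed the threshold, with a bar at the median of each list and a dashed line at the median of all tested genes (−0.15). Replication, mitosis, ribosome and small nucleolar RNA host lists lie left of the dashed line, whereas polymerase, p53 and immediate-early lists straddle it.

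Cell cycle entry genes moved in both directions. CCND3, a D-type cyclin that opens the way into S phase, rose to 205, 178 and 179.6 FPKM at 1000 nM, against 121, 115 and 137 FPKM in DMSO (log2 change 0.59, SE 0.13, adjusted p = 0.00963, relative 0.77). CDC25A, the phosphatase that activates CDK2, fell (log2 change −0.83, adjusted p = 0.00936). Among the 14 tested G1 genes these calls stood beside falls in CDK6, CDK2, SKP2 and the inhibitor CDKN1B, 1 higher and 5 lower in all. That was 42.9% called, beside 16.9% of all tested genes. Relative to the median gene 2 were higher and 2 lower. The lower count fell to 1 without 1000 nM replicate 2 or 3 or DMSO replicate 2 or 3, to 2 without DMSO replicate 1 and to 3 without 1000 nM replicate 1. CDKN1A, the p21 inhibitor, had 3.98, 3.93 and 2.38 FPKM at 1000 nM, against 3.47, 1.51 and 2.40 FPKM in DMSO and did not pass (log2 change 0.37, adjusted p = 0.456), and CCND1 stayed below the level needed for testing.

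E2F1, the founding E2F activator, had 7.23, 4.56 and 5.20 FPKM at 1000 nM, against 10.9, 9.99 and 12.7 FPKM in DMSO. The groups did not overlap (log2 change −0.88, SE 0.20, adjusted p = 0.0134, relative −0.72), although the call was lost without 1000 nM replicate 2 or 3 or DMSO replicate 3 (adjusted p = 0.0532 to 0.0637). It was the only one of 13 members of the E2F and retinoblastoma families past the threshold (7.69% called, beside 16.9% of all tested genes). E2F8 came next (log2 change −0.65, adjusted p = 0.0553), and RB1 stood at 0.16 (adjusted p = 0.666).

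Origin licensing genes, whose products load the replicative helicase onto DNA before S phase, fell as a group. Of 19 tested members 16 were lower and 0 higher (median −0.82), against 13.2% lower among all tested genes, and on the relative scale 12 were lower. In 18 members every 1000 nM library lay below every DMSO library, as in 30.1% of all tested genes. CDT1, the loading factor, had 45.7, 38.8 and 33.3 FPKM at 1000 nM, against 132, 106 and 121 FPKM in DMSO. All treated libraries lay far below all DMSO libraries (log2 change −1.59, SE 0.14, adjusted p = 0.000102, relative −1.40). All 6 subunits of the MCM2 to MCM7 helicase passed, with log2 changes of −0.78 for MCM2, −0.93 for MCM3, −0.99 for MCM4, −0.76 for MCM5, −1.02 for MCM6 and −1.16 for MCM7, which overlaps AP4M1. CDC45, which turns that helicase into its active form, fell by 1.02 (adjusted p = 0.000918). The count of 16 became 8 without DMSO replicate 3, 9 without 1000 nM replicate 2, 10 without 1000 nM replicate 3 or DMSO replicate 2, and 12 without 1000 nM replicate 1 or DMSO replicate 1.

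At the replication fork and in DNA precursor synthesis, 23 of 38 genes were lower and 0 higher (median −0.72; 21 lower on the relative scale). Among all tested genes 13.2% were lower. In 35 of the 38 the groups did not overlap, all with the 1000 nM libraries lower, as in 30.1% of all tested genes. GINS1, part of the active helicase, fell to 5.82, 6.10 and 4.08 FPKM at 1000 nM, against 17.9, 14.8 and 19.5 FPKM in DMSO (log2 change −1.55, SE 0.22, adjusted p = 0.00115, relative −1.37). DUT, which keeps uracil out of DNA, fell to 101, 89.4 and 97.1 FPKM at 1000 nM, against 241, 247 and 277 FPKM in DMSO (log2 change −1.40, SE 0.16, adjusted p = 0.000376, relative −1.21). Thymidylate synthase TYMS, which overlaps ENOSF1, fell by 1.33 (adjusted p = 0.000907), as did POLE2, a subunit of the leading-strand polymerase (adjusted p = 0.0249), whose call was lost without 1000 nM replicate 1 or 3 or DMSO replicate 1, 2 or 3 (adjusted p = 0.053 to 0.0847). RRM2, the regulated subunit of ribonucleotide reductase, had 25.1, 25.2 and 26.0 FPKM at 1000 nM, against 49.5, 46.6 and 47.6 FPKM in DMSO. Its 3 values at 1000 nM were nearly equal and all below the DMSO values (log2 change −0.89, SE 0.14, adjusted p = 0.00215, relative −0.70). Leaving out a single 1000 nM or DMSO library brought the count of 23 to between 16 and 19.

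The promoters of CDT1 and MCM7 are shown because both genes belong to the licensing list and hold letters of an E2F element. The windows run from 250 bases before to 50 bases after the transcript start in RefSeq (GRCh38.p14). That of CDT1 is chr16:88803539-88803838, plus strand, and that of MCM7 is chr7:100101348-100101647, minus strand. Capitals mark TTTCCCGC, TTTCGCGC, TTTGCCGC or TTTGGCGC on either strand.
CDT1: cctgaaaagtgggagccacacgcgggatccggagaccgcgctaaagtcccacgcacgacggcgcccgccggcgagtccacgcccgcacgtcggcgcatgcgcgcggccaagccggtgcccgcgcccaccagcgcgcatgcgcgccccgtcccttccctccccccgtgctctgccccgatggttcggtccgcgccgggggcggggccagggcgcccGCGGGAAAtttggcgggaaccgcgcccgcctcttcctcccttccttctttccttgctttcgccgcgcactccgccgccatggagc
MCM7: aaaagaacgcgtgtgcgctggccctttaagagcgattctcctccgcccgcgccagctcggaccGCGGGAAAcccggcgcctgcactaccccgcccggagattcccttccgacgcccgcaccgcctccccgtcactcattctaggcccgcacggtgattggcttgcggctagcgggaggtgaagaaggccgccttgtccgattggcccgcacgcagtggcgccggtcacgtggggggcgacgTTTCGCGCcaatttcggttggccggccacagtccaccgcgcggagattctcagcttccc
Of the 17 tested licensing genes with a window 9 held such a word (52.9%), all 9 of them among the 14 lower genes. It was found in 14 of 33 replication fork genes (42.4%), in 10 of 21 lower ones and in 4 of 12 that did not pass. Over all genes of the table the share was 3.99%, and over all tested genes 6.95%. A match is a description of letters, not a site of binding.

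Most genes of G2 phase and mitosis fell. Of 71 tested members 58 were lower and 0 higher on the deposited scale (median −1.07), against 13.2% lower among all tested genes. Relative to the median gene 55 were lower and 1 higher. In 66 members every 1000 nM library lay below every DMSO library, as in 30.1% of all tested genes. AURKB, the kinase that corrects chromosome attachment, had 91.7, 74.7 and 75.8 FPKM at 1000 nM, against 339, 331 and 401 FPKM in DMSO. The 3 treated libraries lay close together and far below DMSO (log2 change −2.13, SE 0.13, adjusted p = 7e-06, relative −1.95). TOP2A, the topoisomerase that untangles sister chromosomes, had 67.1, 76.9 and 80.5 FPKM at 1000 nM, against 333, 303 and 316 FPKM in DMSO. The groups lay far apart and the 1000 nM values spanned only 67.1 to 80.5 FPKM (log2 change −2.07, SE 0.22, adjusted p = 0.000234, relative −1.89). NCAPH, a condensin subunit, fell to 1.51, 2.04 and 1.23 FPKM at 1000 nM, against 9.83, 9.08 and 10.6 FPKM in DMSO (log2 change −2.07, adjusted p = 0.000499), and the kinetochore protein NDC80 fell by 1.87 (adjusted p = 0.00254). CDK1, the kinase that starts mitosis and itself a target of the CDK-activating kinase, had 108, 90.5 and 92.7 FPKM at 1000 nM, against 252, 218 and 243 FPKM in DMSO, with no overlap (log2 change −1.28, SE 0.15, adjusted p = 0.000335, relative −1.10).

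The cyclins that CDK1 binds fell with it, CCNA2 by −1.18, CCNB1 by −1.21 and CCNB2 by −1.08 on the log2 scale (adjusted p = 0.00105, 0.000301 and 0.000274). So did the checkpoint kinases BUB1 (−1.35), BUB1B (−1.70) and TTK (−1.64) and the mitotic kinase PLK1 (−1.41), while AURKA did not pass (−0.46, adjusted p = 0.0936). Of the master regulators of these genes, MYBL2 fell (−1.01, adjusted p = 0.00834) and FOXM1 did not pass (−0.79, adjusted p = 0.0753). FZR1, which directs the destruction of mitotic proteins in G1, was the 1 member higher on the relative scale (0.83, adjusted p = 0.0112). Genes in this paragraph were named by their role after their values were seen. The count of 58 stayed between 47 and 57 when any single 1000 nM or DMSO library was left out.

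The TOP2A and CDK1 promoters are shown because they hold the CHR element, TTTGAA, and the CCAAT box, which recur in promoters of mitotic genes. In RefSeq (GRCh38.p14) the window of TOP2A is chr17:40417847-40418146, minus strand, and that of CDK1 is chr10:60778081-60778380, plus strand. Capitals mark TTTGAA and CCAAT on either strand.
TOP2A: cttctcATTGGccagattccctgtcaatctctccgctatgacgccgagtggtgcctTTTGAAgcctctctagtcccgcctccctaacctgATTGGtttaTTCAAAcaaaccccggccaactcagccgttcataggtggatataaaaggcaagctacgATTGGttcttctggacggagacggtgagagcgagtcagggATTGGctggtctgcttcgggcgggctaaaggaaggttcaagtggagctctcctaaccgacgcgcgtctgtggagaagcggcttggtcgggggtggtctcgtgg
CDK1: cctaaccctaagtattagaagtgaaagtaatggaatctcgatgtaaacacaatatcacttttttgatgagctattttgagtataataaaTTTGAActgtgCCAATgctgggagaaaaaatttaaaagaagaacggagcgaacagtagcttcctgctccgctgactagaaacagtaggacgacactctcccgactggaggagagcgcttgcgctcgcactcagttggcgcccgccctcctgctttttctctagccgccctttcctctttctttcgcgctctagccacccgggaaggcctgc
TTTGAA stood in 44 of the 61 tested G2/M genes with a window (72.1%), against 18.2% of all genes of the table and 13.5% of all tested genes. Within the list it stood in 37 of 52 members that fell (71.2%) and in 7 of 9 that did not pass (77.8%), a difference that was not tested. CCAAT stood in 47 of the 61 (77.0%), against 39.7% of all genes. The E2F words were found in 5 of the 61 (8.2%).

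Genes of homologous recombination and the Fanconi pathway, which repair broken and cross-linked DNA, were lower in 13 of 31 cases and higher in 0 (median −0.61, 13 lower relative). The share lower among all tested genes was 13.2%. The DNA damage kinase CHEK1, which overlaps ACRV1, fell to 9.97, 5.78 and 10.8 FPKM at 1000 nM, against 26.3, 22.8 and 25.8 FPKM in DMSO (log2 change −1.44, adjusted p = 0.0042). RAD51AP1, a partner of the recombinase, fell by 1.36 (adjusted p = 0.000717), and the helicase BLM by 1.17 (adjusted p = 0.0056). FANCD2 also fell by 1.17 (adjusted p = 0.00137) and overlaps FANCD2OS. The count became 7 without 1000 nM replicate 3 or DMSO replicate 3, 8 without 1000 nM replicate 2 or DMSO replicate 1, and 9 without DMSO replicate 2.

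Tubulins, the subunits of the spindle and of other microtubules, split by gene. TUBB2B had 47.6, 41.6 and 29.3 FPKM at 1000 nM, against 262, 211 and 253 FPKM in DMSO. All treated values were far below the DMSO values (log2 change −2.60, SE 0.21, adjusted p = 5.5e-05, relative −2.42). TUBB (−1.51) and TUBA1B (−1.10) fell too, and 6 of 14 tested tubulins were lower in all, against 13.2% of all tested genes. TUBB3, best known from neurons, rose to 11.8, 13.8 and 13.7 FPKM at 1000 nM, against 4.08, 5.45 and 5.65 FPKM in DMSO (log2 change 1.22, SE 0.18, adjusted p = 0.00108, relative 1.38).

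Histone genes of the replication-dependent clusters moved apart, 5 higher and 9 lower of 31 tested, the same on both scales. The list leaves out HIST1H4I, HIST1H2AH, HIST2H2AB and HIST2H3D, which stood among the 12 largest falls described below. Mature transcripts of the clustered histone genes normally end without a poly(A) tail, so a 3′ library primed on poly(A) reads them only in part. Near-identical copies also make single gene values uncertain. HIST1H4C had 532, 835 and 643 FPKM at 1000 nM, against 3928, 3906 and 3989.7 FPKM in DMSO. The treated libraries lay between 532 and 835 FPKM and the DMSO libraries lay close together far above them (log2 change −2.58, SE 0.18, adjusted p = 1.8e-05, relative −2.39). HIST1H2BK had 2027, 1559 and 1579 FPKM at 1000 nM, against 441, 422 and 454 FPKM in DMSO, a rise without overlap (log2 change 1.96, SE 0.12, adjusted p = 8e-06, relative 2.15). In the genome HIST1H2BK overlaps H4C9, the current name of HIST1H4I, which was one of the large falls just named. No source used here states how reads were shared between these 2 entries, so their reads cannot be told apart. HIST1H2BH rose as well, with 28.2, 11.7 and 6.67 FPKM at 1000 nM, against 2.14, 0.139 and 0.174 FPKM in DMSO (log2 change 3.14). It entered the test through its treated and not its DMSO values, which were near the floor in DMSO replicates 2 and 3, so no p is given. HIST2H2AC and HIST2H2BF fell by 2.14 and 2.07, the second of them overlapping FCGR1A. HIST2H2BF had 1.03, 0.869 and 0.997 FPKM at 1000 nM, near the level needed for testing. The 5 rises include HIST1H2BH, and the 9 falls include HIST2H2BF. Among the 9 calls on the lower side, 5 were left without 1000 nM replicate 3 or DMSO replicate 3 and 6 without DMSO replicate 1, and the 5 rises were kept in number in each of these fits.

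**Figure D3:**
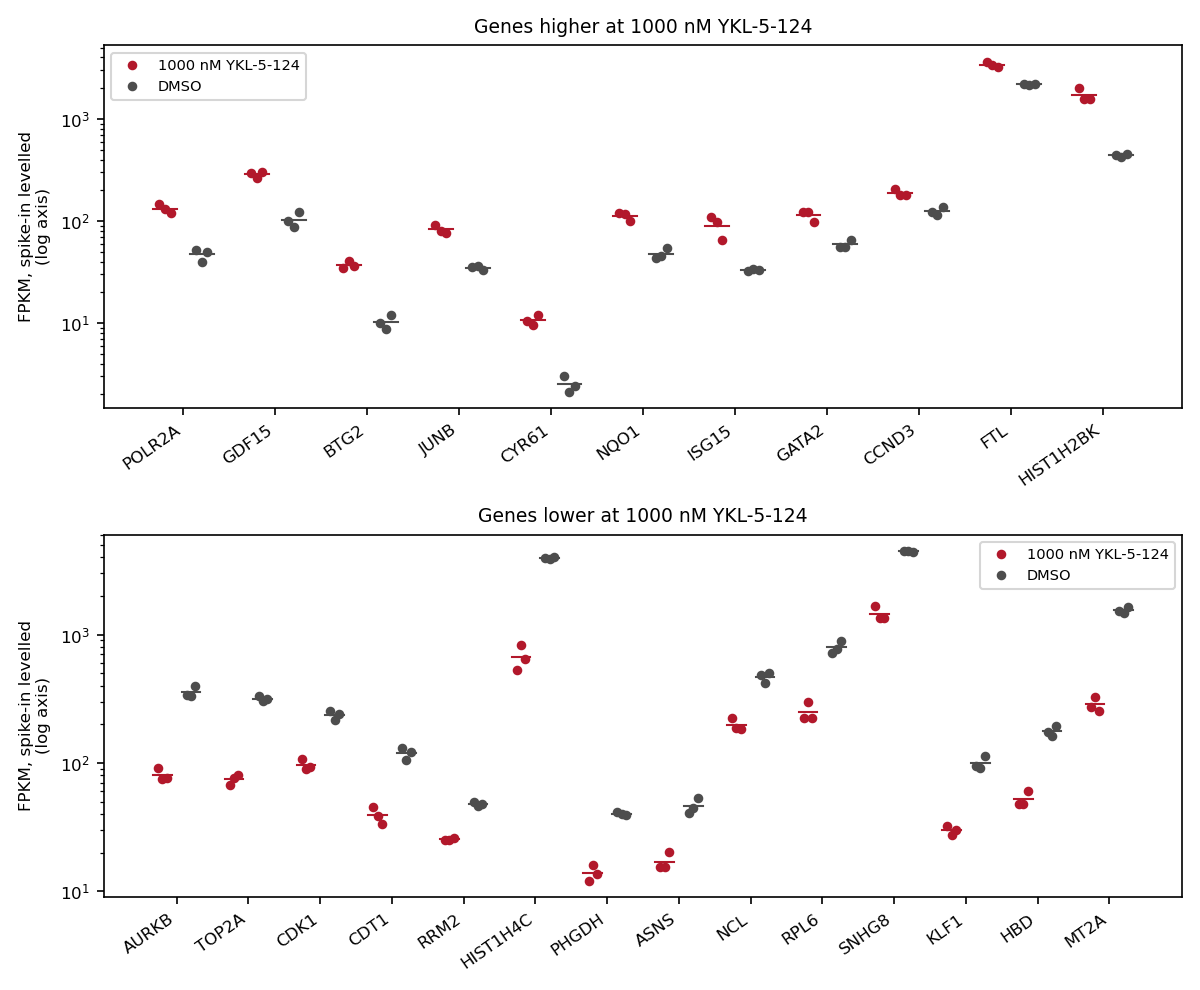
FPKM (log axis) in each 1000 nM library (red, left of each pair) and each DMSO library (grey, right) for 11 genes that rose (top) and 14 that fell (bottom), with a bar at each mean. No pair of groups overlaps, for example AURKB at 74.7 to 91.7 FPKM at 1000 nM and 331 to 401 FPKM in DMSO.

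Genes that build ribosomes fell broadly. MYC, which drives them in many cells, had 91.8, 68.5 and 52.2 FPKM at 1000 nM, against 125, 96.8 and 125 FPKM in DMSO. The treated libraries were lower in each case, but they varied among themselves, and the change did not pass over the 9 libraries (log2 change −0.72, adjusted p = 0.147). It did pass in the 6 libraries alone (adjusted p = 0.0326) and without 100 nM replicate 2 (adjusted p = 0.0265). Of 41 nucleolar genes of ribosome assembly 31 were lower and 0 higher (median −0.78, 26 lower relative), against 13.2% lower among all tested genes. In 38 every 1000 nM library lay below every DMSO library, as in 30.1% of all tested genes. NCL, the abundant nucleolar protein nucleolin, had 225, 187 and 184 FPKM at 1000 nM, against 487, 417 and 500.2 FPKM in DMSO, with no overlap (log2 change −1.24, SE 0.13, adjusted p = 0.000196, relative −1.05). GNL3, a nucleolar GTPase, fell to 4.30, 6.69 and 5.88 FPKM at 1000 nM, against 22.1, 20.7 and 19.7 FPKM in DMSO (log2 change −1.74, adjusted p = 0.00146), and overlaps GLT8D1. HEATR1, which supports ribosomal RNA synthesis, fell by 1.43 and overlaps LGALS8, and RPF2, an assembly factor of the large subunit, fell by 1.25. The count of 31 was 19 without DMSO replicate 1 or 3, 20 without 1000 nM replicate 2 or 3, 23 without 1000 nM replicate 1 and 27 without DMSO replicate 2.

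Ribosomal protein genes were lower in 63 of 78 cases and higher in 0 (median −0.62, 50 lower relative), against 13.2% lower among all tested genes. In 73 the treated libraries all lay below DMSO, as in 30.1% of all tested genes. Many have near-identical pseudogenes, so their single values are uncertain. RPL6 had 223, 301 and 224 FPKM at 1000 nM, against 720.3, 771 and 897 FPKM in DMSO, all treated values under the DMSO ones (log2 change −1.68, SE 0.20, adjusted p = 0.000481, relative −1.49). RPL23 fell to 4681, 4911 and 4380.1 FPKM at 1000 nM, against 9733, 9230.3 and 11676 FPKM in DMSO (log2 change −1.13, adjusted p = 0.00071). The count was 39 without DMSO replicate 3, and between 43 and 61 without any other of the 6 libraries. Ribosomal protein transcripts typically start with a terminal oligopyrimidine tract. A C at the first transcribed base followed by 4 or more C or T stood in 46 of 62 tested genes with a RefSeq start (74.2%), against 5.14% of all genes of the table, in 37 of 49 that fell and 9 of 13 that did not pass.

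Host genes of small nucleolar RNAs, noncoding genes whose introns hold the guides of ribosomal RNA modification, had a median of −1.03, with 14 of 18 lower and 0 higher (13 lower and 1 higher relative). Of all tested genes 13.2% were lower. SNHG16 had 20.6, 22.2 and 24.2 FPKM at 1000 nM, against 87.0, 79.2 and 90.9 FPKM in DMSO. The treated libraries lay close together and far below DMSO (log2 change −1.89, SE 0.14, adjusted p = 3.3e-05, relative −1.71). SNHG8 fell to 1661, 1342 and 1338 FPKM at 1000 nM, against 4463, 4469 and 4368 FPKM in DMSO (log2 change −1.62, adjusted p = 0.000208). SNHG12 and SNHG7 fell by 1.81 and 1.72, and 11 or 12 members stayed lower when any single 1000 nM or DMSO library was left out.

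Splicing genes were lower in 28 of 55 cases and higher in 1 (median −0.48, 22 lower and 4 higher relative). Over all tested genes 13.2% were lower and 3.69% higher. HNRNPA1, a regulator of splice site choice, fell to 237, 202 and 193 FPKM at 1000 nM, against 530.4, 447 and 547 FPKM in DMSO (log2 change −1.27, SE 0.14, adjusted p = 0.000247, relative −1.08). SNRPA, a protein of the U1 particle, fell by 1.27 (adjusted p = 0.00228), SRSF2, which overlaps MFSD11, by 1.19 and SRSF3 by 1.13. Without DMSO replicate 3 the count of 28 was 18, and it stayed between 20 and 23 without any other of the 6 libraries.

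Enzymes that supply nucleotides and polyamines followed, with 15 of 27 lower and 1 higher (median −0.65, 13 lower and 2 higher relative). Over all tested genes 13.2% were lower and 3.69% higher. CTPS1, which makes CTP, fell to 11.6, 12.0 and 10.4 FPKM at 1000 nM, against 39.9, 31.3 and 42.9 FPKM in DMSO (log2 change −1.65, SE 0.22, adjusted p = 0.000715, relative −1.47). PFAS, of purine synthesis, fell by 1.45 (adjusted p = 0.00342) and overlaps CTC1. CAD, which starts pyrimidine synthesis, fell by 1.10 (adjusted p = 0.00442), and AMD1, of polyamine synthesis, by 0.92 (adjusted p = 0.00307), overlapping CDK19.

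The amino acid branch of the integrated stress response, which the factor ATF4 drives when amino acids run short, was lower in 16 of 31 cases and higher in 0 (median −0.70, 15 lower and 2 higher relative). Of all tested genes 13.2% were lower. ASNS, asparagine synthetase, had 15.4, 15.4 and 20.3 FPKM at 1000 nM, against 40.7, 44.3 and 53.2 FPKM in DMSO. Every treated library lay below every DMSO library (log2 change −1.39, SE 0.17, adjusted p = 0.000426, relative −1.21). PHGDH and PSAT1, the first and second enzymes of serine synthesis, fell to 12.1, 16.2 and 13.6 FPKM and 55.3, 55.2 and 49.6 FPKM at 1000 nM, against 41.7, 40.4 and 39.0 FPKM and 136, 133 and 149 FPKM in DMSO. Their log2 changes were −1.48 (SE 0.15) and −1.37 (SE 0.13). CHAC1, which breaks down glutathione, had 2.51, 3.56 and 3.87 FPKM at 1000 nM, against 6.61, 10.0 and 11.6 FPKM in DMSO, again without overlap (log2 change −1.26, SE 0.27, adjusted p = 0.00896, relative −1.09). The count of 16 stayed between 13 and 16 without any single library.

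The ASNS and CHAC1 promoters are shown because both hold a C/EBP-ATF element, the kind of site that ATF4 reads. In RefSeq (GRCh38.p14) the window of ASNS is chr7:97872359-97872658, minus strand, and that of CHAC1 is chr15:40953221-40953520, plus strand. Capitals mark TGATGNAA on either strand.
ASNS: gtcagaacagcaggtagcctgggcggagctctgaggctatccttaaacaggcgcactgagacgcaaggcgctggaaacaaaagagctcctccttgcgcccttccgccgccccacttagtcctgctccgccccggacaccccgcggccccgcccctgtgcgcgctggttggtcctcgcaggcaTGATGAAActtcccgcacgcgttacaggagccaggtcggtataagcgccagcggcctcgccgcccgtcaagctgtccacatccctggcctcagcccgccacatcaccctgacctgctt
CHAC1: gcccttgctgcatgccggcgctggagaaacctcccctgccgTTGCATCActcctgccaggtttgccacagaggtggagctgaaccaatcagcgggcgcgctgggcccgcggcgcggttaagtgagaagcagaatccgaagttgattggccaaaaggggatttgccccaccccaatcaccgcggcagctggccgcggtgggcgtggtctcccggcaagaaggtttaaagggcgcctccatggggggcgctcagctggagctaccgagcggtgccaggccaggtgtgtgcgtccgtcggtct
The element was found in 8 of 25 tested stress response genes with a window (32.0%), against 4.46% of all genes of the table and 2.42% of tested genes. It stood in 4 of the 13 that fell and 4 of the 12 that did not pass. Transfer RNA synthetases, which charge tRNAs with amino acids, held it in 6 of 19 (31.6%). They were lower in 13 of 30 cases and higher in 0 (median −0.48; 10 lower and 1 higher relative), with AARS, the alanine enzyme, at 45.0, 39.9 and 35.5 FPKM at 1000 nM, against 86.4, 74.7 and 77.4 FPKM in DMSO (log2 change −0.97, adjusted p = 0.00113). The serine enzyme of mitochondria SARS2, the glycine enzyme GARS and the leucine enzyme LARS fell by 1.01, 0.94 and 0.86. The count of 13 (43.3% called, beside 16.9% of all tested genes) was 8 without 1000 nM replicate 2 or 3 or DMSO replicate 1 or 3.

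Protein folding genes are given by compartment. Cytosolic and mitochondrial heat shock genes were lower in 14 of 31 cases and higher in 0 (median −0.42), with HSPA8, the standing cytosolic HSP70, at 53.9, 66.8 and 53.4 FPKM at 1000 nM, against 112, 122 and 129 FPKM in DMSO (log2 change −1.06, adjusted p = 0.00214). HSP90AA1, which overlaps WDR20, and the chaperonin HSPD1 fell by 0.92 and 0.87. The count of 14 (45.2% called, beside 16.9% of all tested genes) became 7 without DMSO replicate 3, 8 without 1000 nM replicate 3 and 9 without 1000 nM replicate 2. Endoplasmic reticulum genes had 1 higher and 7 lower of 36 (median −0.05), 22.2% called beside 16.9% of all tested genes. The 7 became 3 without DMSO replicate 3 and 4 without DMSO replicate 1 or 1000 nM replicate 2. CRELD2, a stress-induced protein of that compartment, rose to 34.7, 34.1 and 34.8 FPKM at 1000 nM, against 17.0, 16.5 and 21.1 FPKM in DMSO (log2 change 0.90, SE 0.15, adjusted p = 0.00267, relative 1.08). The calcium-binding chaperone CALR fell by 0.89 (adjusted p = 0.00248), and HERPUD1, of the degradation machinery, by 0.91 (adjusted p = 0.0168), a call lost without 1000 nM replicate 2 or DMSO replicate 1 or 3 (adjusted p = 0.0646 to 0.0708). Proteasome subunits had 9 of 31 lower and 0 higher (29.0% called, beside 16.9% of all tested genes). That count was 1 without DMSO replicate 3 and 3 without 1000 nM replicate 2 or 3 or DMSO replicate 1, and PSMD14 kept its call throughout (log2 change −0.77, adjusted p = 0.00535).

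Targets of p53, the stress-activated tumour suppressor, split into 4 higher and 3 lower of 25 (8 and 2 relative), 28.0% called beside 16.9% of all tested genes. The 3 lower became 1 without 1000 nM replicate 2 or 3 or any single DMSO library. GDF15, a stress cytokine, had 298, 262 and 301 FPKM at 1000 nM, against 100.1, 87.5 and 122 FPKM in DMSO. The treated libraries were close together and all above the DMSO libraries (log2 change 1.48, SE 0.15, adjusted p = 0.00022, relative 1.66). BTG2, an antiproliferative regulator that is also an immediate-early gene, had 34.3, 40.5 and 35.9 FPKM at 1000 nM, against 9.96, 8.70 and 12.0 FPKM in DMSO, again without overlap (log2 change 1.76, SE 0.16, adjusted p = 0.000102, relative 1.94). ZMAT3, an RNA-binding protein, rose to 27.7, 29.3 and 28.7 FPKM at 1000 nM, against 15.5, 13.8 and 14.3 FPKM in DMSO (log2 change 0.93, adjusted p = 0.00197). TP53I3, an oxidoreductase that overlaps FAM228B, rose by 1.50 (adjusted p = 0.0128), a call lost without DMSO replicate 3 (adjusted p = 0.0532). Of the death activators in the same list, 2 fell, PMAIP1 to 38.0, 35.8 and 27.8 FPKM at 1000 nM, against 54.9, 59.6 and 67.6 FPKM in DMSO (log2 change −0.83, adjusted p = 0.00705), and BBC3 by 0.48, a call lost without 1000 nM replicate 2 or 3 or DMSO replicate 1, 2 or 3 (adjusted p = 0.0751 to 0.183).

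In the BCL2 family 1 of 26 members rose and 2 fell on the deposited scale (11.5% called, beside 16.9% of all tested genes). On the relative scale 6 rose and 1 fell. The 2 falls became 1 without DMSO replicate 1 or 3 or 1000 nM replicate 2 or 3. The survival gene BCL2L1 had 18.8, 13.1 and 14.5 FPKM at 1000 nM, against 8.30, 7.36 and 8.09 FPKM in DMSO. The groups did not overlap (log2 change 0.87, SE 0.22, adjusted p = 0.0219, relative 1.04), but the call was lost without 1000 nM replicate 1 or 3 or DMSO replicate 1, 2 or 3 (adjusted p = 0.0561 to 0.0803). MCL1, the survival gene that myeloma cells commonly need, had 181, 158 and 137 FPKM at 1000 nM, against 159, 155 and 149.6 FPKM in DMSO, and the groups overlapped (log2 change 0.03, adjusted p = 0.903).

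Immediate-early genes, which respond within minutes to signals, had 4 higher and 2 lower of 33 (9 and 2 relative), with 1 lower without DMSO replicate 3. That was 18.2% called, beside 16.9% of all tested genes. JUNB, a partner in the AP-1 factor, rose to 91.9, 80.3 and 77.0 FPKM at 1000 nM, against 35.6, 36.0 and 32.8 FPKM in DMSO (log2 change 1.23, SE 0.13, adjusted p = 0.00022, relative 1.41), and overlaps HOOK2. The matrix protein CYR61 rose to 10.4, 9.57 and 11.9 FPKM at 1000 nM, against 3.04, 2.14 and 2.40 FPKM in DMSO (log2 change 1.73, SE 0.21, adjusted p = 0.000543, relative 1.87). FOS, the classic member, had 24.4, 16.7 and 18.9 FPKM at 1000 nM, against 19.1, 23.3 and 17.1 FPKM in DMSO, and the groups overlapped (log2 change 0.00, adjusted p = 0.998). ZFP36L2, an RNA decay factor, fell by 1.29 (adjusted p = 0.000953).

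Inflammatory genes showed single large changes rather than list-wide ones. CXCL8, the neutrophil chemokine interleukin 8, had 14.6, 13.3 and 6.19 FPKM at 1000 nM, against 62.4, 60.4 and 82.2 FPKM in DMSO. The treated libraries all lay below the DMSO libraries, with replicate 3 lowest (log2 change −2.55, SE 0.37, adjusted p = 0.00121, relative −2.37). NF-kB targets as a list had 1 higher and 3 lower of 25 (5 and 2 relative), 16.0% called beside 16.9% of all tested genes. The 1 higher was lost without any single 1000 nM or DMSO library, and the 3 lower became 1 without DMSO replicate 1 or 3 or 1000 nM replicate 1 or 3. ISG15, a ubiquitin-like interferon product, rose to 109, 97.4 and 64.9 FPKM at 1000 nM, against 32.7, 33.5 and 33.1 FPKM in DMSO (log2 change 1.39, SE 0.21, adjusted p = 0.00139, relative 1.57). IFIT3, another interferon product, fell to 0.491, 1.01 and 0.800 FPKM at 1000 nM, against 3.06, 2.66 and 2.71 FPKM in DMSO (log2 change −1.12), and overlaps LIPA. Its 1000 nM values stood near or below the level needed for testing, so no p is given. The interferon list had 2 higher and 1 lower of 23 (4 and 1 relative), with 1 higher without DMSO replicate 3 or 1000 nM replicate 2.

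Red cell genes fell in part. Of 9 tested globin genes 6 were lower and 0 higher on either scale (median −0.69), against 13.2% lower among all tested genes. HBD, the delta chain of adult haemoglobin, had 48.1, 47.7 and 60.1 FPKM at 1000 nM, against 173, 161 and 194 FPKM in DMSO. All treated values were below the DMSO values (log2 change −1.74, SE 0.18, adjusted p = 0.000234, relative −1.56). The fetal HBG1, whose reads may be shared with HBG2, fell to 984, 834 and 945 FPKM at 1000 nM, against 1444, 1337 and 1563 FPKM in DMSO (log2 change −0.65, SE 0.11, adjusted p = 0.00285, relative −0.47). The embryonic chains HBE1 and HBZ fell by 1.43 and 0.76, the HBZ call being lost without 1000 nM replicate 2 or DMSO replicate 1 or 3 (adjusted p = 0.0512 to 0.0541), and HBA2, near-identical to HBA1, by 0.95.

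Of 21 tested erythroid transcription factors 2 were higher and 3 lower (5 and 3 relative), 23.8% called beside 16.9% of all tested genes. Without a single 1000 nM or DMSO library 1 to 2 were higher and 1 to 3 lower. KLF1, the factor that switches on adult globin genes, had 32.2, 27.5 and 29.9 FPKM at 1000 nM, against 94.5, 91.6 and 113 FPKM in DMSO. The groups lay far apart (log2 change −1.70, SE 0.14, adjusted p = 5.5e-05, relative −1.52). GATA2, a stem and progenitor factor that gives way to GATA1 in maturing red cells, had 122, 124 and 98.1 FPKM at 1000 nM, against 56.2, 55.6 and 65.6 FPKM in DMSO, a rise without overlap (log2 change 0.94, SE 0.17, adjusted p = 0.00442, relative 1.12). GATA1 had 51.1, 34.9 and 43.9 FPKM at 1000 nM, against 31.3, 31.2 and 30.3 FPKM in DMSO, all treated libraries above DMSO. It passed on the relative scale (0.64, adjusted p = 0.0195) but not on the deposited scale (log2 change 0.46, adjusted p = 0.139). The progenitor factors IKZF1 and MYB fell by 0.84 and 0.74, the first call being lost without 1000 nM replicate 1, 2 or 3 or DMSO replicate 1 or 3 (adjusted p = 0.0629 to 0.103) and the second lost without DMSO replicate 3 (adjusted p = 0.0597).

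The transferrin receptor TFRC, which takes up iron, fell to 77.8, 72.7 and 63.7 FPKM at 1000 nM, against 133, 131 and 122 FPKM in DMSO (log2 change −0.84, adjusted p = 0.00794), whereas the ferritin light chain FTL, which stores it, rose to 3608, 3354 and 3199.5 FPKM at 1000 nM, against 2189, 2145 and 2218 FPKM in DMSO (log2 change 0.63, SE 0.11, adjusted p = 0.00327, relative 0.82). UROS, of haem synthesis, rose by 0.79. ABCB10, of the mitochondrial membrane, fell by 0.92, a call lost without 1000 nM replicate 3 or DMSO replicate 3 (adjusted p = 0.0598 to 0.064). In the haem and iron list 2 of 23 tested genes were higher and 5 lower (3 and 3 relative), 30.4% called beside 16.9% of all tested genes. The 5 lower became 1 to 4 without a single 1000 nM or DMSO library. Of 20 genes of the red cell membrane and blood groups 1 rose and 3 fell (3 higher and 3 lower relative), 20.0% called beside 16.9% of all tested genes. The 3 falls became 1 without DMSO replicate 2 or 3 or 1000 nM replicate 3. The skeleton protein ADD2 stood at −1.55 and the blood group protein RHCE, which overlaps TMEM50A, at 1.44.

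Plasma cell genes, most of them low here, had 0 higher and 4 lower of 15 tested (3 lower relative), 26.7% called beside 16.9% of all tested genes. The 4 became 2 without DMSO replicate 2 or 3 or 1000 nM replicate 2 or 3. XBP1, the secretory factor, fell to 57.3, 43.5 and 42.1 FPKM at 1000 nM, against 88.4, 72.1 and 87.5 FPKM in DMSO (log2 change −0.79, adjusted p = 0.00635). The surface proteoglycan SDC1 had 8.58, 11.4 and 16.7 FPKM at 1000 nM, against 38.0, 14.1 and 20.6 FPKM in DMSO, with overlap (log2 change −0.87, adjusted p = 0.232). Of other cell types, the myeloid genes FCGR1A (−1.30) and ITGAM (−0.91) fell, as did VIM, of the stromal list (−0.87), and B cell, T and NK cell and megakaryocyte markers gave no call by limma (0 of 1, 0 of 2 and 1 of 3 tested genes at an unadjusted p under 0.05). The sums of erythroid, plasma cell and myeloid markers given above were lower, and that of megakaryocyte markers higher, in every 1000 nM library than in every DMSO library, and their part in the results on other gene groups was not tested.

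Redox and metabolic genes held calls in both directions. Of 21 tested NRF2 targets and redox genes 3 were higher and 2 lower (4 and 0 relative), 23.8% called beside 16.9% of all tested genes. The 3 higher became 2 without any single 1000 nM or DMSO library. NQO1, the quinone reductase under the factor NRF2, had 119, 116 and 100.1 FPKM at 1000 nM, against 43.7, 45.8 and 54.5 FPKM in DMSO. All treated libraries were above all DMSO libraries (log2 change 1.20, SE 0.13, adjusted p = 0.00028, relative 1.39). INSIG1, which restrains the sterol factor SREBP2, fell by 1.33, and TM7SF2, an enzyme of sterol synthesis, rose by 1.01. The sterol list had 1 higher and 4 lower of 28 (17.9% called, beside 16.9% of all tested genes). Glycolysis genes turned with the scale: of 25, 5 passed as lower and 1 as higher on the deposited scale, while on the relative scale 1 passed as lower and 7 as higher. On the deposited scale 24.0% were called, beside 16.9% of all tested genes. The 5 lower became 2 without DMSO replicate 3 or 1000 nM replicate 3, and 3 without DMSO replicate 1 or 1000 nM replicate 2, and the 1 higher was lost without 1000 nM replicate 2. The lactate carrier SLC16A1 fell on both (−0.98, relative −0.79). Oxidative phosphorylation genes had 15 of 57 lower and 0 higher (5 and 1 relative), 26.3% called beside 16.9% of all tested genes. The 15 became 5 without DMSO replicate 3, 6 without 1000 nM replicate 2, 8 without 1000 nM replicate 3 and 9 without DMSO replicate 1. KRAB zinc finger genes, a large family of repressors, had 0 calls in 44 on the deposited scale by limma (6 at an unadjusted p under 0.05) and 2 higher on the relative scale.

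Among all protein-coding genes of at least 5 FPKM in 1 group, the 12 largest falls without overlap held 2 metallothioneins, metal-binding proteins. MT2A had 273, 329 and 255 FPKM at 1000 nM, against 1525, 1477 and 1633 FPKM in DMSO. Each treated library was far below every DMSO library (log2 change −2.44, SE 0.13, adjusted p = 2e-06, relative −2.25). MT1A was at or near the library floor at 1000 nM (0.130, 0.106 and 0.0955 FPKM), against 11.9, 11.4 and 12.1 FPKM in DMSO. It entered the test through its DMSO and not its 1000 nM values, so no p is given. MRLN, a small membrane protein described in skeletal muscle, fell to 27.9, 23.2 and 15.0 FPKM at 1000 nM, against 189, 179 and 197 FPKM in DMSO (log2 change −3.08, adjusted p = 0.000125), and AIMP2, a scaffold of tRNA synthetases that overlaps EIF2AK1, fell by 2.55. The histone genes HIST1H4I, HIST1H2AH, HIST2H2AB and HIST2H3D, HIST1H4C, the chemokine CXCL8 and the tubulin TUBB2B stood beside them.

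By the same rule the largest rise and the largest fall were a pair of overlapping entries. HNRNPH2, a splicing regulator, had 91.6, 67.0 and 76.7 FPKM at 1000 nM, against 0.171, 0.154 and 0.359 FPKM in DMSO, while the read-through entry RPL36A-HNRNPH2, which contains it, had 0.148, 1.18 and 0.113 FPKM at 1000 nM, against 90.5, 85.7 and 112 FPKM in DMSO. At 1000 nM the reads stood under HNRNPH2, and in DMSO under the read-through entry, at a like level. Each entry is near the floor in 1 of the groups, so no p is given, and no source used here states how reads were shared between the 2 entries. The other large rises were mostly of low-level genes, among them MEIG1, CCDC107, OR2B6, KRCC1 and VAMP5, with 6.49, 9.70, 5.58, 9.60 and 6.50 FPKM on average at 1000 nM. The membrane protein TMEM158 rose to 63.8, 50.2 and 51.5 FPKM at 1000 nM, against 10.9, 15.5 and 17.3 FPKM in DMSO (log2 change 1.87, SE 0.22, adjusted p = 0.000433, relative 2.04), and CCDC92, which overlaps DNAH10, RABL2A and the homeobox gene MEIS3 rose by 2.21, 1.92 and 1.89.

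Between the doses few genes differed. At 1000 nM 38 genes were lower (0.322% of those tested) and 8 higher (0.0677%) than at 100 nM in the direct test, which needs no DMSO library, 0.39% in all. Of the 8, the 7 noncoding entries averaged under 1 FPKM at 100 nM. They entered the test mainly through the other groups, so their calls are of limited weight. On the relative scale 95 were lower (0.804%) and 20 higher (0.169%), 0.974% in all. Against DMSO, 100 nM gave calls in 12.5% of tested genes, 2.48% higher and 10.0% lower. Of the 38 lower genes, 14 belonged to the G2/M list, among them the chromosome passenger genes AURKB, CDCA8 and BIRC5, the anaphase activator CDC20, the separase inhibitor PTTG1 and the cyclin CCNB2. A further 4 were replication genes (TK1, RFC5, GINS2 and RRM2), and CDT1, CDK2, TUBB, TUBB4B, HIST1H4C, HIST1H2BK and MT2A were also lower. In 24 of the 38 the means fell at each dose, and in 14 the 100 nM mean lay above the DMSO mean.

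AURKB stood at 357 ± 38.1 FPKM in DMSO, 224 ± 16.2 at 100 nM and 80.7 ± 9.50 at 1000 nM (log2 difference −1.47, SE 0.13, adjusted p = 0.001 for 1000 nM over 100 nM). Its 3 groups did not overlap, and the call was kept in 6 of 6 fits that left out a library. CDT1 stood at 119.6 ± 13.2 FPKM in DMSO, 86.4 ± 2.0 at 100 nM and 39.3 ± 6.19 at 1000 nM (log2 difference −1.13, SE 0.14, adjusted p = 0.0158), a call kept in 3 of 6. RRM2 stood at 47.9 ± 1.50 FPKM in DMSO, 46.6 ± 7.27 at 100 nM and 25.4 ± 0.483 at 1000 nM (log2 difference −0.84, SE 0.14, adjusted p = 0.0372), with the 100 nM mean close to that of DMSO, in a call kept in 1 of 6. HIST1H2BK, which overlaps HIST1H4I, was highest at the lower dose, at 439 ± 15.8 FPKM in DMSO, 2954 ± 117 at 100 nM and 1722 ± 264 at 1000 nM (log2 difference −0.79, SE 0.12, adjusted p = 0.0291). The count of 46 calls moved strongly with single libraries, to 2 without 1000 nM replicate 2, 5 without 1000 nM replicate 3, and 10, 4 and 82 without 100 nM replicate 1, 2 and 3. The 100 nM library 2 stood apart from the other 8 on the second principal component (16.3% of the variance), and 100 nM replicate 3 held more values below its floor than any other XG1 library.

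For most other genes the 1000 nM level could not be told from that at 100 nM. POLR2A stood at 47.1 ± 6.39 FPKM in DMSO, 134 ± 9.07 at 100 nM and 132 ± 14.7 at 1000 nM (−0.03 between the doses, adjusted p = 0.971). PSAT1 stood at 139 ± 8.62 FPKM in DMSO, 58.6 ± 5.82 at 100 nM and 53.4 ± 3.23 at 1000 nM (adjusted p = 0.781), and HBD at 176 ± 16.5 FPKM in DMSO, 57.7 ± 15.7 at 100 nM and 52.0 ± 7.04 at 1000 nM (adjusted p = 0.875). In all 3 both doses lay on the same side of DMSO. BTG2 stood at 10.2 ± 1.67 FPKM in DMSO, 22.3 ± 1.31 at 100 nM and 36.9 ± 3.24 at 1000 nM, a step that did not pass between the doses (adjusted p = 0.118). A p above the threshold does not show that the doses act alike, and the comparisons of each dose with DMSO share the DMSO libraries.

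**Figure D4:**
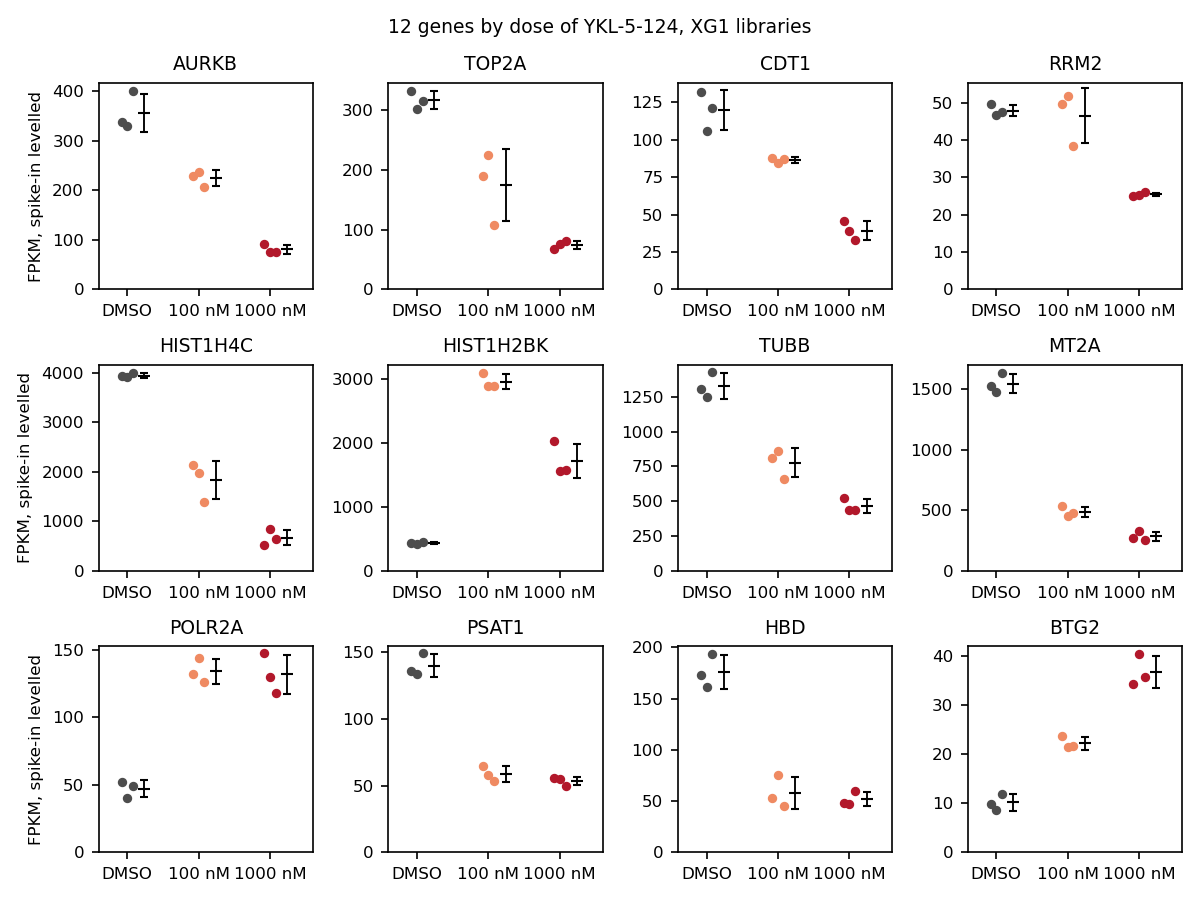
FPKM (linear axis from 0) of 12 genes in XG1 libraries in DMSO, 100 nM and 1000 nM YKL-5-124, with a point per library and the mean ± SD (n = 3) beside it. AURKB, CDT1, HIST1H4C and TUBB step down at each dose, RRM2 is lower at 1000 nM than in the other 2 groups, and POLR2A, PSAT1 and HBD are already near their 1000 nM level at 100 nM.

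The same dose was given to AMO1 cells, and the response of XG1 minus that of AMO1 was tested as an interaction over all 18 libraries. In DMSO, SDC1 and IRF4 averaged 24.2 and 0.533 FPKM in the XG1 libraries and 5067 and 77.5 FPKM in AMO1. HBG1 and KLF1 averaged 1448 and 99.6 FPKM in the XG1 libraries and 0.941 and 0.323 FPKM in AMO1. HBE1 was higher in AMO1 (106 against 67.2 FPKM). The part of these marker differences in the responses was not tested. Of 12792 tested genes 34.3% passed on the deposited scale, 32.8% as higher and 1.5% as lower, with a median difference of 0.55. On the relative scale 16.7% passed, 8.47% as higher and 8.22% as lower, so single differences are read on both. Within AMO1, 68.2% of 10503 tested genes passed against DMSO, and 48.2% on the relative scale. RRM2 changed by −0.89 in XG1 and −4.86 in AMO1, a difference of 3.97 (SE 0.21, adjusted p = 4.6e-09, relative 3.24). CDK1 changed by −1.28 in XG1 and −4.16 in AMO1 (difference 2.88, SE 0.23, adjusted p = 6.3e-07, relative 2.16). E2F1 changed by −0.88 in XG1 and −3.61 in AMO1 and TOP2A by −2.07 in XG1 and −4.43 in AMO1, with differences of 2.73 and 2.36 (relative 2.12 and 1.60). In AMO1, CDK1 averaged 5.03 ± 1.17 FPKM at 1000 nM and 106 ± 7.78 FPKM in DMSO (SD, n = 3 each).

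The stress response genes differed likewise. CHAC1 changed by −1.26 in XG1 and −4.64 in AMO1 (difference 3.38, SE 0.30, relative 2.84) and ASNS by −1.39 in XG1 and −3.14 in AMO1 (difference 1.75, SE 0.27, relative 0.95). FOS changed by 0.00 in XG1 and 1.70 in AMO1 (difference −1.70, SE 0.54, adjusted p = 0.0224, relative −2.47). POLR2A changed by 1.47 in XG1 and 0.62 in AMO1. That difference passed on the deposited scale (0.85, adjusted p = 0.0126) but was 0.01 relative to the median gene (adjusted p = 0.972). GDF15 changed by 1.48 in XG1 and 1.53 in AMO1, a difference of −0.06 (adjusted p = 0.881) that became −0.90 on the relative scale (adjusted p = 0.000664).

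**Figure D5:**
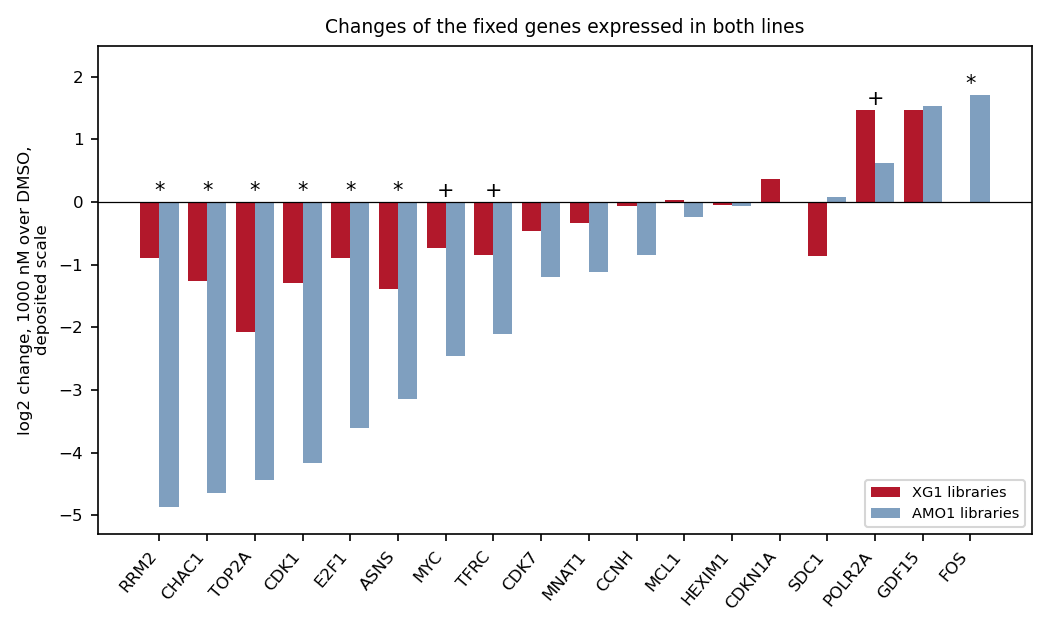
Log2 change at 1000 nM over DMSO (deposited scale) of the fixed genes expressed in both lines, in XG1 (red, left) and AMO1 (blue, right). A star marks genes whose difference between the lines passed on both scales and a plus those that passed on the deposited scale only, as POLR2A did.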

How the data were processed

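QuantSeq 3′ libraries of XG1 and AMO1 cells were grouped by the line and treatment in their labels. The submitters' processing notes name HISAT2, the build hg19 and Cuffnorm, with no versions. The authors deposited FPKM per gene for each library. Summed ERCC spike-ins were nearly level, so the deposited FPKM appear to have been rescaled to them, which is inferred from the values. Files hold a floor in place of 0 (0.0954 to 0.140 FPKM in the 6 libraries), and 5120 genes stood at it throughout. A 3′ library yields reads from transcript ends only, yet FPKM is scaled by gene length, so no levels are compared between genes. The read depth is unknown, and precision was taken from the replicates.

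The 92 spike-ins were left out. Genes that reached 1 FPKM in 3 or more libraries were fitted as log2(FPKM + 1) over the 9 XG1 libraries with limma 3.58.1 (R 4.3.3), with moderated two-sided tests, a mean-dependent prior variance and Benjamini-Hochberg adjustment. The difference between lines used all 18 libraries. Scripts were tested on simulated data. Of the symbols, 23523 matched RefSeq names (GRCh38.p14), from which overlaps and promoter windows were taken (27305 genes, 35116 windows; a gene holds a motif if any of its windows does). Sums of 3 against 3 libraries were compared by an exact permutation test.

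Genes named were up to 4 members per list with the largest change past the threshold (where fewer than 2 passed, the 2 largest), the 12 largest protein-coding rises and falls of at least 5 FPKM in 1 group without overlap, and 24 fixed genes. The 46 lists, the named genes and the tests were chosen with earlier results of these data known. Alternatives were another pseudocount, filter, scaling and prior, a replicate block, the 6 libraries alone and each library left out. A few genes are not reported here.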

Additional observations from a re-analysis of the deposited data

Results flagged for a closer look

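For 7 of the fixed genes expressed in both lines the response to 1000 nM YKL-5-124 differed between XG1 and AMO1 in the interaction test on both scales. The XG1 minus AMO1 difference in log2 change was 3.97 for RRM2, 3.38 for CHAC1, 2.88 for CDK1, 2.73 for E2F1, 2.36 for TOP2A and 1.75 for ASNS, each a smaller fall in XG1. For FOS it was −1.70, with log2 changes of 0.00 in XG1 and 1.70 in AMO1. Relative to the median gene the differences were 3.24, 2.84, 2.16, 2.12, 1.60, 0.95 and −2.47 in the same order. Summed over all genes, the AMO1 libraries held 431965 to 686266 FPKM at 1000 nM and 1442943 to 1553906 FPKM in DMSO, a larger fall than the XG1 sum at 73.3% of DMSO, and the part of this in the differences was not tested.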

How the results depend on the processing

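The 1994 calls at 1000 nM against DMSO became 1153 with no filter on low values and 1047 to 2619 when a single XG1 library was left out, while the 6 libraries alone gave 2887. On the relative scale the 2342 calls became 1535 with no filter and 1433 to 2938 with a library left out. Between the doses the 46 calls became 9 with no filter, 115 on the relative scale and 2 to 82 with a library left out. The 4390 calls of the line difference became 2136 on the relative scale and 3227 to 4771 with a library left out. The median change of −0.15 became −0.0172 with no filter and −0.1963 to −0.0879 with a library left out, and the summed FPKM of 73.3% ran from 70.5% to 76.5%. The cause of these moves was not tested. A left-out fit holds fewer libraries, and the fit with no filter takes in all 26249 genes, 5120 of them at the floor throughout. Leaving out 100 nM replicate 3 was chosen after seeing the data. Same-numbered libraries at 1000 nM and in DMSO did not deviate together (r = 0.01, −0.04 and 0.08), so the numbers are not taken as pairs. A replicate block gave 1740 calls (relative 1989), 46 between the doses and 3760 for the line difference. Of 160 named genes that passed on the deposited scale none reversed under any alternative run, 32 lost their call with no filter, 8 under the block and up to 35 with a library left out (35 without DMSO replicate 3). Among the genes reported, signs turned only for ones that did not pass. When a library was left out, the changes on the deposited scale ran over −0.1892 to 0.0888 for CCNH, −0.0650 to 0.1339 for MCL1, −0.1638 to 0.1106 for HEXIM1 and −0.1443 to 0.1181 for FOS, and on the relative scale over −0.1814 to 0.1735 for CD7 (0.0003 with upper-quartile scaling), −0.3563 to 0.0439 for MNAT1 and −0.0059 to 0.2666 for HEXIM1.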

Other observations

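Metallothionein genes, looked at because MT2A and MT1A stood among the largest falls, were chosen after their values were seen. Of 15 genes and pseudogenes in the files 6 were tested. MT2A and MT1F passed as lower at 1000 nM, MT1A is given above, and MT1F had 9.78, 11.0 and 8.79 FPKM at 1000 nM, against 16.7, 17.0 and 17.1 FPKM in DMSO (log2 change −0.73, adjusted p = 0.0191), a call not kept on the relative scale (−0.55, adjusted p = 0.106). MT1X, MT1G and MT1L did not pass (−0.51, −0.82 and −1.24), and the other 9 were below the level needed for testing. At 100 nM MT2A was already at 488 FPKM on average. Copies of this family resemble each other, so their reads may be shared.

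Several genes outside the lists were lower at 1000 nM than at 100 nM in the test between the doses. CKS1B, a small subunit of cyclin-dependent kinases, stood at 1312 ± 98.4 FPKM in DMSO, 898 ± 137 at 100 nM and 461 ± 42.5 at 1000 nM (log2 difference −0.95, SE 0.14, adjusted p = 0.023). KIAA0101, which binds the replication clamp, stood at 1137 ± 63.8 FPKM in DMSO, 713 ± 65.1 at 100 nM and 408 ± 53.7 at 1000 nM (log2 difference −0.81, SE 0.13, adjusted p = 0.0297), and the microtubule regulator STMN1 at 1400.4 ± 74.8 FPKM in DMSO, 965 ± 127 at 100 nM and 562 ± 66.0 at 1000 nM (log2 difference −0.78, SE 0.13, adjusted p = 0.0364). Each kept its call in 2 of 6 fits that left out a library. The lymphocyte activation gene CD69 was the 1 protein-coding gene higher at 1000 nM than at 100 nM, at 52.1 ± 6.20 FPKM in DMSO, 33.2 ± 4.94 at 100 nM and 67.3 ± 12.8 at 1000 nM (log2 difference 0.99, SE 0.17, adjusted p = 0.04), and kept the call in 0 of 6. The other 7 higher entries were noncoding and all averaged under 1 FPKM at 100 nM, among them SNORA28, at 61.1 ± 27.3 FPKM at 1000 nM and 0.135 ± 0.0301 FPKM at 100 nM.

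A few lists not described above held single calls. These made up 7.69%, 9.09% and 8.33% of the tested members in the order below, beside 16.9% of all tested genes. Among 26 genes of DNA methylation and Polycomb silencing 2 were lower and 0 higher, CDCA7, a partner of the remodeller HELLS (log2 change −1.01, adjusted p = 0.00085), and the maintenance methyltransferase DNMT1 (log2 change −0.56, adjusted p = 0.032), whose call was lost without any single 1000 nM or DMSO library (adjusted p = 0.0522 to 0.118). Of 11 members of the MYC family and its antagonists 1 was higher, the antagonist MXD4 (log2 change 0.68, adjusted p = 0.036), a count that was 0 without any single DMSO library and without 1000 nM replicate 1 or 2. On the relative scale 4 were higher. Among 12 genes of MHC class I presentation 1 was lower, PSMB9 of the immunoproteasome (log2 change −0.63, adjusted p = 0.0458), a call lost without any single 1000 nM or DMSO library. On the relative scale 2 were higher and 0 lower, among them HLA-E (0.93, adjusted p = 0.018).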
